A study of Mus musculus with 16 samples.

Results

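The mitochondrial carrier family was followed here in mouse kidney through the 46 protein-coding genes whose symbol begins with Slc25a, out of 30277 genes (17903 protein-coding) listed in the deposited tables. Members were chosen by symbol alone, and 1 further gene of that name, Slc25a5-ps, is a pseudogene and was left out. The 129S1/SvlmJ congenic mice fell into 4 groups: 5 Kl/Kl males of 44 to 47 days, 3 control males of 45 to 46 days, 4 Kl/Kl females of 45 to 54 days and 4 control females of 45 to 49 days. Kl/Kl mice carry a recessive mutation of Klotho on both alleles and are labelled as having renal disease, and the controls are labelled as having healthy renal function. Control males were heterozygous (+/Kl) and control females were wild type (+/+), so the control genotype went with sex. Whole kidneys were perfused and frozen, polyadenylated RNA was sequenced, and each sex was deposited as its own table of 8 libraries. The labels do not say that libraries came from separate animals, so a p-value here reflects variation among these samples, which may be technical. All values are transcript levels of a whole organ, in which fewer cells of a type and less RNA per cell cannot be told apart.

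Carriers of this family are small proteins of the mitochondrial inner membrane, with a few members in peroxisomes or the outer membrane. Each moves a metabolite, nucleotide, cofactor or ion between cytosol and matrix, commonly by exchange, and they reach the inner membrane through the TIM22 import machinery. The proximal tubule, the most mitochondria-rich segment of the nephron, depends on them for ATP export, fatty acid oxidation, ammonia production and gluconeogenesis.

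Levels were given as TPM, a length-scaled share of each library, and the deposited values are scaled by genomic span, introns included. For the same number of reads, a carrier on a longer gene therefore has a lower TPM. A mean of at least 1 TPM was reached by only 28 to 30 of the 46 members in the comparisons below. Reads per library were estimated from the smallest values (21.6 to 31.8 M), and on estimated reads 42 or 43 members reached a mean of 10 reads. Slc25a2, Slc25a18 and Slc25a41 reached it in no comparison, and Slc25a31 only where Kl/Kl female replicate 3 was included. The targeted gene Kl stood at 0.0235 to 0.265 TPM in Kl/Kl males, against 4.14 to 15.1 TPM in control males, and at 0.0268 to 0.518 TPM in Kl/Kl females, against 9.18 to 21.2 TPM in control females. All Kl/Kl libraries lay below all controls for Kl.

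A pair of libraries stood apart from their groups. Control male replicate 3 had 54.3% of its total in mitochondrially encoded genes, where the remaining male libraries had 35.4% to 44.8%, and 41 of 42 carriers were below both other control males, with a median ratio of 0.585 that was close to that of all genes (0.581). Kl/Kl female replicate 3 had a median rank correlation of 0.744 with the other libraries. Its 8 proximal tubule markers summed to 2.62 TPM, against 602 to 1077 TPM in the other female libraries, while 6 heart muscle markers summed to 1904 TPM, against at most 2.00 TPM. Its 3 thick ascending limb markers summed to 1.87 TPM, against 250 to 419 TPM, so tubule markers were nearly missing from a library labelled kidney. Each comparison is given with and without both libraries.

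In healthy kidneys the carriers spanned a wide range of levels. The scale here is estimated reads per kb of annotated exon per M reads, over the 6 controls without control male replicate 3. Slc25a5, the adenine nucleotide translocase 2 that exchanges matrix ATP for cytosolic ADP, was highest at 468 ± 24.6 (SD, n = 6). On this scale each of these controls was above every control value of any other member. The order depends on the annotated exon length, 1646 bp for Slc25a5 and 5550 bp for Slc25a3, the phosphate carrier. Before division by length, their estimated reads overlapped in these controls (21364 to 23911 for Slc25a5 and 20644 to 25629 for Slc25a3). Slc25a39, a mitochondrial glutathione carrier, followed at 146 ± 22.0, Slc25a4, the muscle-type adenine nucleotide translocase, at 139 ± 21.7, and Slc25a3, the phosphate carrier, at 138 ± 7.89. The ranges of these 3 genes and of Slc25a10, the dicarboxylate carrier (119 ± 33.0), overlapped, so their order was not resolved. Slc25a11, the oxoglutarate carrier of the malate-aspartate shuttle, stood at 81.6 ± 6.22, overlapping with Slc25a10, and Slc25a1, the citrate carrier, at 47.9 ± 3.81, below every control's value of Slc25a11. From Slc25a1 downward, neighbours in the order mostly overlapped.

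**Figure D1:**
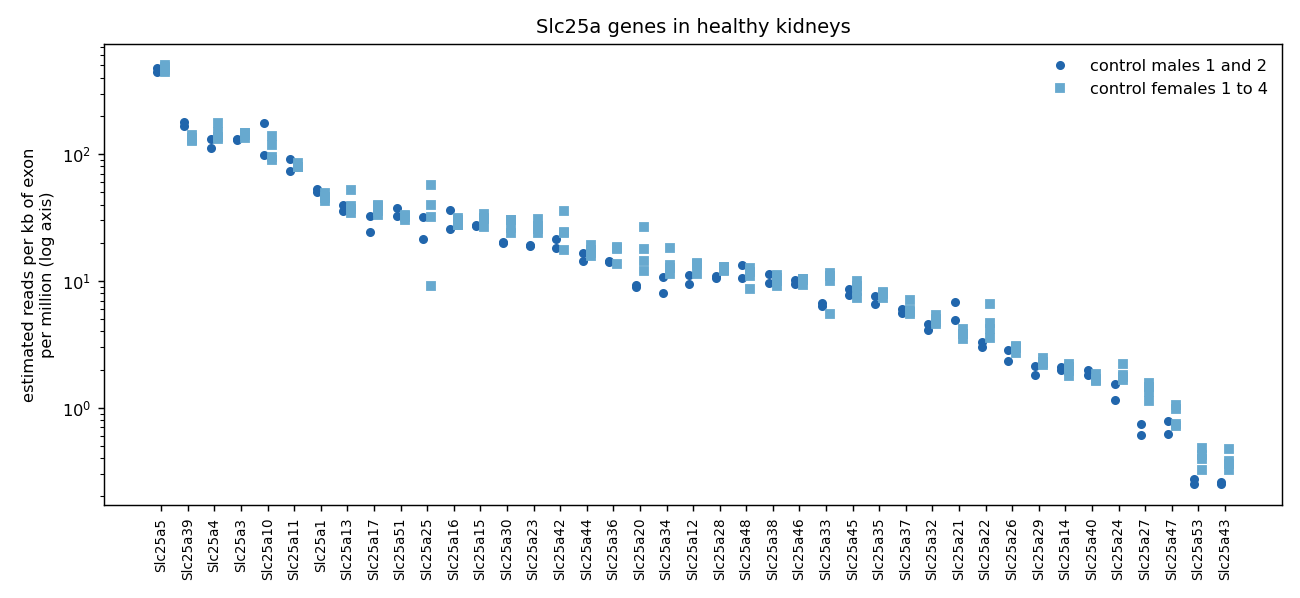
Level of 41 Slc25a genes in healthy kidneys, in estimated reads per kb of exon per M reads on a log axis; circles are control males 1 and 2 and squares are control females 1 to 4. Slc25a5 is highest at 468 on average, Slc25a25 is widely scattered among controls, and Slc25a53 and Slc25a43 are lowest of those drawn.

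Family members with like roles stood at different levels per kb of exon, and the size of the gaps depends on the annotated exon length. Of the pair of aspartate-glutamate carriers, Slc25a13 (citrin) stood at 34.4 to 51.8 and Slc25a12 (aralar) at 9.49 to 13.8 on this per-length scale. Of the glutathione carriers, Slc25a40 stood at 1.63 to 1.97, far below Slc25a39. Of the mitoferrins, the iron carriers, Slc25a28 stood at 10.6 to 12.9 and Slc25a37 at 5.45 to 7.05. Before division by length, the mitoferrins' estimated reads overlapped in these controls (1156 to 1502 for Slc25a28 and 961 to 1184 for Slc25a37). Those of Slc25a13 (3916 to 5487) and Slc25a12 (2125 to 3121) did not, nor did those of the glutathione carriers. Slc25a25, an ATP-Mg/phosphate carrier, ranged from 9.05 to 56.6 among the controls alone, a wide scatter, and its gene overlaps Naif1 on the opposite strand by 990 bp.

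In males, the question was which carriers differ between Kl/Kl kidneys with renal disease and control kidneys. On log2(TPM + 1), 0 of 29 members tested rose and 1 fell, against 3.74% of all 8439 genes tested that rose and 2.18% that fell (limma, adjusted p under 0.05 over all genes). Without control male replicate 3, 0 of 30 rose and 1 fell, against 3.16% and 7.36% of 8640 genes. With all males 0 members fell once any library other than control replicate 3 was left out, and without control replicate 3 0 fell once control replicate 1 or 2 was left out, which leaves a single control. The members' median log2 difference was 0.23, against 0.19 for all genes, and 0.03 against 0.01 without that control. At an unadjusted p under 0.05 in the limma fit, 4 members were higher and 1 lower, against 21.0% and 5.92% of all genes, and without that control 1 was higher and 3 lower, against 14.2% and 17.6%. On estimated reads, an alternative added after the data were seen, 6 of 42 members rose and 2 fell, against 14.2% and 5.26% of 18297 genes, and 4 rose and 3 fell without that control, against 11.9% and 5.33% of 18281 genes. The member shares on estimated reads lay near the shares of all genes.

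Summed markers of some cell types also differed between the male groups, while those of the proximal tubule overlapped. Each sum adds TPM over genomic span, so genes on short spans weigh more in it. The summed level of 8 proximal tubule markers was 331, 562, 512, 294 and 707 TPM in Kl/Kl males, against 857, 773 and 538 TPM in control males, and was lowest in Kl/Kl replicates 1 and 4. The 4 collecting duct markers summed to 134 to 227 TPM in Kl/Kl males and 54.3 to 92.4 TPM in control males, and 5 macrophage markers to 13.8 to 21.5 TPM in Kl/Kl males and 5.52 to 8.98 TPM in control males. The 4 lymphocyte markers summed to 3.74 to 27.3 TPM in Kl/Kl males and 86.7 to 87.4 TPM in control males. Podocyte markers, 4 in number, summed to 12.6 to 16.2 TPM in Kl/Kl males and 4.92 to 10.1 TPM in control males. Those of the thick ascending limb, distal convoluted tubule and endothelium overlapped between the groups. The part of these marker shifts in the carriers' differences was not tested.

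Several carriers were lower in Kl/Kl males without passing the main test. Slc25a39, the glutathione carrier, had 84.2, 74.6, 65.7, 78.2 and 71.5 TPM in Kl/Kl males, against 111, 102 and 65.4 TPM in control males. On TPM all Kl/Kl males were below the first pair of controls, while control replicate 3 was lower than all of them. The log2(TPM + 1) difference was -0.28 (SE 0.22, limma adjusted p = 0.418), and -0.51 (SE 0.14, limma adjusted p = 0.0508) without control replicate 3, where it passed in 5 of 9 other settings. In estimated reads per kb of exon per M reads, control replicate 3 (168) was near the other control males (180 and 167). All Kl/Kl males were below it on that scale (121 to 141). The log2 difference in estimated reads was -0.41 with all males (limma adjusted p = 0.0691). Without control replicate 3 it was -0.43, which passed (limma adjusted p = 0.0472). Slc25a21, the oxodicarboxylate carrier of lysine and tryptophan breakdown, was too low on TPM for the main test (0.0255, 0.0337, 0.0299, 0.0354 and 0.0332 TPM in Kl/Kl males, against 0.0555, 0.0761 and 0.0360 TPM in control males), with the highest Kl/Kl male just under the lowest control. On estimated reads it fell by 0.88 on the log2 scale (limma adjusted p = 0.00696), and by 0.94 (limma adjusted p = 0.0126) without control replicate 3. Slc25a1, the citrate carrier, had 32.6 to 34.8 TPM in Kl/Kl males and 40.8, 42.3 and 21.3 TPM in control males, with a log2 difference of -0.31 without control replicate 3 (limma adjusted p = 0.0951).

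**Figure D2:**
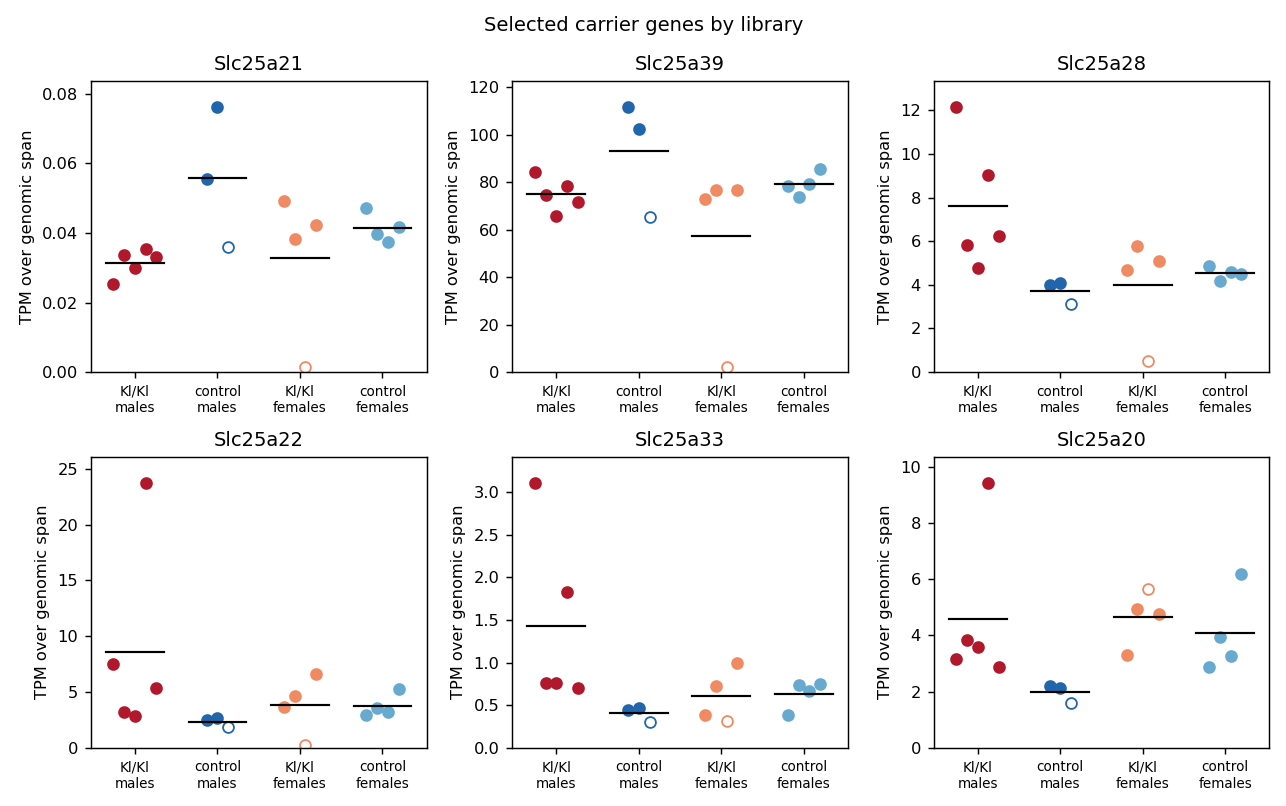
TPM over genomic span in each library for 6 carriers, with Kl/Kl males, control males, Kl/Kl females and control females along the horizontal axis; bars are group means, and open circles are control male replicate 3 and Kl/Kl female replicate 3. For Slc25a21 all Kl/Kl males lie below all control males, and for Slc25a28, Slc25a22, Slc25a33 and Slc25a20 all lie above them.

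Counted without a test, 10 of 42 members had every Kl/Kl male above every control male, against 21.2% of all genes, and 2 had every Kl/Kl male below, against 4.01%. Without control replicate 3 the same 10 members lay above (22.9% of all genes), and 7 lay below (17.5% of all genes), among them Slc25a1, Slc25a13, Slc25a15, Slc25a21, Slc25a39 and Slc25a40. The 10 were Slc25a12, Slc25a20, Slc25a22, Slc25a24, Slc25a27, Slc25a28, Slc25a29, Slc25a33, Slc25a47 and Slc25a53. Both shares of members above were near those of all genes.

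Among these, several members reached their highest values in Kl/Kl male replicates 1 and 4. Slc25a28, mitoferrin 2, had 12.1, 5.82, 4.75, 9.04 and 6.22 TPM in Kl/Kl males, against 3.98, 4.07 and 3.10 TPM in control males. Every Kl/Kl male was above every control, and the spread among Kl/Kl males (SD 2.99) was wider than among controls (SD 0.538). The log2 difference was 0.81 (SE 0.26, limma adjusted p = 0.0833), and 0.71 (SE 0.30, limma adjusted p = 0.145) without control replicate 3. It rose on estimated reads with all males (0.82, limma adjusted p = 0.0405) and with the library name prefix, whose meaning the labels do not give, as a covariate (0.84, limma adjusted p = 0.0308). On estimated reads without control replicate 3 the difference was 0.91 and was not called (limma adjusted p = 0.0553).

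Slc25a33, a pyrimidine nucleotide carrier that supplies the matrix for mitochondrial DNA and RNA synthesis, had 3.11, 0.761, 0.761, 1.83 and 0.705 TPM in Kl/Kl males, against 0.444, 0.462 and 0.301 TPM in control males. Kl/Kl replicates 1 and 4 stood well above the other Kl/Kl males, which were close together and still above the controls. The log2 difference was 0.70 on log2(TPM + 1) (SE 0.27, limma adjusted p = 0.131), and on estimated reads it rose by 1.42 (SE 0.42, limma adjusted p = 0.0372), which was not called without control replicate 3 (1.44, limma adjusted p = 0.0794). Its gene overlaps the lncRNA Gm13068 by 1091 bp on the opposite strand, and whether counting used strand is not given in the sources used here. Slc25a36, the other pyrimidine nucleotide carrier, had 3.56 to 5.73 TPM in Kl/Kl males and 2.57 to 4.28 TPM in control males, which overlapped.

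The promoters of 3 carriers whose Kl/Kl males all lay above the control males are shown, with that of Slc25a39, which was not higher, for comparison. The 3 were picked from 10 such members, and whether motifs differ between higher and other carriers was not tested. Each runs from 250 bases before to 50 bases after the gene's start in RefSeq (GRCm38.p6, all on the minus strand), 5′ to 3′ along the gene, with motif matches in capitals. Motifs searched on both strands were the E-box CACGTG, the CRE half-site TGACG, the ETS core CCGGAA, the CCAAT box and the NRF1 palindrome. A match is a run of letters and not a shown binding site.
Slc25a28 chr19:43674832-43675131: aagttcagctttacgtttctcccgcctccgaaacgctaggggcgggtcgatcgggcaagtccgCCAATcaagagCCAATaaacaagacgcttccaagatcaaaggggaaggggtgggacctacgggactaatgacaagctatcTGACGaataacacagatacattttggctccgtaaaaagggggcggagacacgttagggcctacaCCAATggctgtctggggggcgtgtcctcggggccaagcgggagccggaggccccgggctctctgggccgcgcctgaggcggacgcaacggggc
Slc25a33 chr4:149774218-149774517: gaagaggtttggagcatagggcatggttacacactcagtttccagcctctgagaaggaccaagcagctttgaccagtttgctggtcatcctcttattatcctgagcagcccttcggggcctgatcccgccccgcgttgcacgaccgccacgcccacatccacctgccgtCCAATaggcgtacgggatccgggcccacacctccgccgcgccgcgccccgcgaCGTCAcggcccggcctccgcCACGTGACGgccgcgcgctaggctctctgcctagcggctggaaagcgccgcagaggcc
Slc25a29 chr12:108835827-108836126: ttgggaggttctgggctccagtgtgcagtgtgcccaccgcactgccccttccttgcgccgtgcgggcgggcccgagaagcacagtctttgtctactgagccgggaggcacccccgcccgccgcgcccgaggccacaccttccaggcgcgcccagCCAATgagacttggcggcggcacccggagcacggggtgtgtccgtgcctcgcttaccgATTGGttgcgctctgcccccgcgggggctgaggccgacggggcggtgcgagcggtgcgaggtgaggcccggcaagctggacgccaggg
Slc25a39 chr11:102407468-102407767: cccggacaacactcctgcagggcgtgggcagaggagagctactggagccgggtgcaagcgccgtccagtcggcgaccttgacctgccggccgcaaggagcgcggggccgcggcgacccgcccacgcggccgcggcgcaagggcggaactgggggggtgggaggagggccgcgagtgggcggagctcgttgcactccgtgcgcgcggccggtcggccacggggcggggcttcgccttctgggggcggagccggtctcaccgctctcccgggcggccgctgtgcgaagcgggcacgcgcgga

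The Slc25a28 window held 3 CCAAT boxes and 1 CRE half-site, the Slc25a33 window 1 E-box, 2 CRE half-sites and 1 CCAAT box, with the E-box overlapping a CRE half-site, and the Slc25a29 window 2 CCAAT boxes. The Slc25a39 window held none of these motifs. Among 45 promoters of 35 members in the table, the E-box was found in 17.8% (7.15% of 32851 promoters), the CRE half-site in 28.9% (20.8%), the ETS core in 24.4% (14.9%) and the CCAAT box in 48.9% (37.4%). The NRF1 palindrome was found in 0 of the 45 (0.971% of all promoters). Some members have more than 1 promoter among the 45, and the few promoters allow no reading of any of these differences.

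Slc25a22, a mitochondrial glutamate carrier, had 7.53, 3.23, 2.88, 23.7 and 5.34 TPM in Kl/Kl males, against 2.45, 2.66 and 1.89 TPM in control males. The group was spread over a wide range, led by Kl/Kl replicate 4. The log2 difference of 1.15 did not pass (SE 0.50, limma adjusted p = 0.168), nor did that of 1.06 without control replicate 3 (SE 0.64, limma adjusted p = 0.291). Slc25a20, the carnitine-acylcarnitine carrier that brings long-chain fatty acids to the matrix, had 3.15, 3.82, 3.60, 9.41 and 2.89 TPM in Kl/Kl males, against 2.21, 2.13 and 1.58 TPM in control males. Replicate 4 was again highest, the other 4 Kl/Kl males were close to one another and above the controls, and the log2 difference was 0.81 (SE 0.29, limma adjusted p = 0.111).

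Several carriers on long genes had low TPM and were tested on estimated reads alone, or mainly so. Slc25a24, an ATP-Mg/phosphate carrier, had 0.243, 0.245, 0.192, 0.184 and 0.207 TPM in Kl/Kl males, against 0.129, 0.0967 and 0.0572 TPM in control males, and rose by 1.04 in log2 estimated reads (SE 0.18, limma adjusted p = 0.00449). The 5 Kl/Kl males were close together, and it also rose without control replicate 3 (0.95, limma adjusted p = 0.0137). Slc25a12, the aspartate-glutamate carrier aralar, had 1.01, 1.08, 1.02, 1.22 and 1.17 TPM in Kl/Kl males, against 0.950, 0.794 and 0.341 TPM in control males, and rose by 0.66 (limma adjusted p = 0.0280), and by 0.43 (limma adjusted p = 0.0464) without control replicate 3, where log2(TPM + 1) gave 0.17 (limma adjusted p = 0.189). Its partner Slc25a13 had 0.427 to 0.666 TPM in Kl/Kl males and 0.851, 0.950 and 0.318 TPM in control males, a difference of -0.55 without control replicate 3 that did not pass (limma adjusted p = 0.0793).

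Slc25a53, which has no settled substrate, had 0.222, 0.0801, 0.0711, 0.166 and 0.0954 TPM in Kl/Kl males, against 0.0388, 0.0424 and 0.0249 TPM in control males. It rose by 1.41 in log2 estimated reads (SE 0.31, limma adjusted p = 0.0118), highest in Kl/Kl replicates 1 and 4, and its gene overlaps Zcchc18 by 5319 bp on the opposite strand. Slc25a27, an uncoupling-protein-like carrier, had 0.477, 0.184, 0.190, 0.353 and 0.230 TPM in Kl/Kl males, against 0.130, 0.104 and 0.164 TPM in control males. It rose by 1.15 without control replicate 3 (limma adjusted p = 0.0409) and had a difference of 0.81 with it (limma adjusted p = 0.105). Slc25a30, the kidney mitochondrial carrier of the same subgroup, had 3.39 to 6.52 TPM in Kl/Kl males and 1.44 to 3.85 TPM in control males, which overlapped.

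Slc25a29, a carrier of basic amino acids, and Slc25a47 lie head to head on chromosome 12, with starts 162 bp apart in the deposited annotation. Slc25a29 had 1.36, 0.776, 0.698, 0.893 and 0.874 TPM in Kl/Kl males, against 0.623, 0.517 and 0.354 TPM in control males, and Slc25a47 had 0.371, 0.172, 0.142, 0.208 and 0.190 TPM in Kl/Kl males, against 0.127, 0.0976 and 0.0953 TPM in control males. In both genes every Kl/Kl male was above every control and Kl/Kl replicate 1 was highest. On estimated reads Slc25a29 rose by 0.70 (limma adjusted p = 0.0346), and Slc25a47 had a difference of 0.71 (limma adjusted p = 0.0762). Without control replicate 3, Slc25a29 no longer passed (limma adjusted p = 0.0629).

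The abundant energy carriers overlapped between the groups in males. Slc25a5 had 271, 277, 299, 299 and 238 TPM in Kl/Kl males, against 258, 273 and 156 TPM in control males. Slc25a3 had 118, 107, 101, 107 and 115 TPM in Kl/Kl males, against 109, 105 and 54.6 TPM in control males. Slc25a4 had 67.9, 81.2, 88.2, 79.0 and 83.5 TPM in Kl/Kl males, against 64.9, 76.3 and 45.6 TPM in control males. On TPM control replicate 3 was the lowest male library for all 3 genes. In estimated reads per kb of exon per M reads it was still lowest for Slc25a5 (427) and Slc25a3 (105). For Slc25a4 it was not (124, against 111 in control replicate 1). Without control replicate 3 the log2(TPM + 1) differences were 0.05 (SE 0.14), 0.03 (SE 0.12) and 0.18 (SE 0.14), with limma adjusted p of 0.814, 0.875 and 0.422. Slc25a10, the dicarboxylate carrier, averaged 51.9 ± 15.0 TPM in Kl/Kl males (SD, n = 5) and 60.5 ± 26.6 TPM in control males (SD, n = 3).

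By role, the estimated-read differences in males without control replicate 3 were mixed within most groups. Of 13 amino acid and carnitine carriers, 11 were tested and 1 rose (median 0.23, between -0.55 and 1.34), and of 13 carriers of cofactors, nucleotides and metals, all 13 were tested and 2 fell (median -0.07, between -1.20 and 1.44). Of 6 carriers of dicarboxylates, tricarboxylates and keto acids, all 6 were tested and 1 fell (median -0.20), and of 8 adenine nucleotide and phosphate carriers, 6 were tested and 1 rose (median 0.13). Of 3 uncoupling-protein-like carriers 1 rose (median 0.37), and of 3 members of membrane dynamics or no settled substrate 1 rose (median 0.05). These calls are limma's, at an adjusted p under 0.05 over all genes, where 11.9% of 18281 genes rose and 5.33% fell, and groups this small allow no reading of their shares. The medians are set beside 0.15 for all genes on this scale.

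Several further members, of 3 of these roles, overlapped between the male groups. Slc25a51, the NAD+ carrier, had 12.5 to 15.9 TPM in Kl/Kl males and 7.96 to 17.9 TPM in control males. Slc25a44, a carrier of branched-chain amino acids, had 3.90 to 4.80 TPM in Kl/Kl males and 1.29 to 4.50 TPM in control males. Slc25a46, an outer membrane protein of mitochondrial dynamics, had 0.962 to 1.23 TPM in Kl/Kl males and 0.461 to 1.14 TPM in control males. The ranges also overlapped for Slc25a17, the peroxisomal carrier (1.84 to 2.23 TPM in Kl/Kl males and 1.25 to 2.43 TPM in control males), and for Slc25a38, the glycine carrier of heme synthesis (1.59 to 3.22 TPM in Kl/Kl males and 1.78 to 2.45 TPM in control males).

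**Figure D3:**
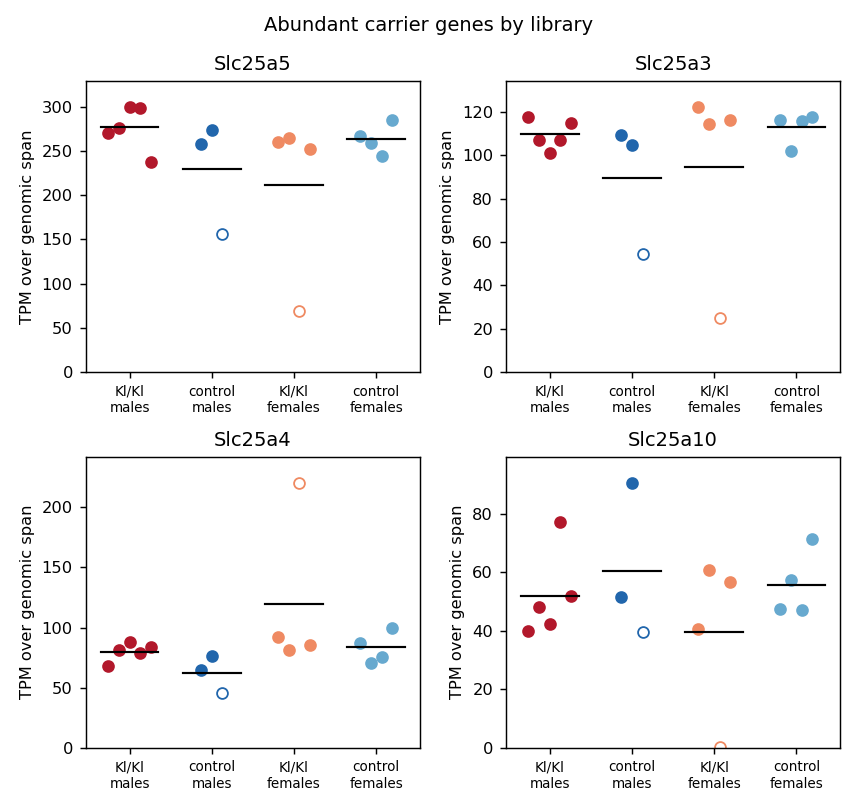
TPM over genomic span of 4 abundant carriers in each library, with Kl/Kl males, control males, Kl/Kl females and control females along the horizontal axis; bars are group means, and open circles are control male replicate 3 and Kl/Kl female replicate 3. The filled points of Kl/Kl and control groups overlap for all 4 genes in both sexes, and Kl/Kl female replicate 3 stands at 220 TPM for Slc25a4.

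In females the same question gave no call among the carriers. With all libraries, 0 of 28 members tested rose or fell (limma on log2(TPM + 1)), against 0.0% and 0.0349% of 8596 genes, and at an unadjusted p under 0.05 the limma fit also had 0 in each direction, against 3.09% and 1.72%. Without Kl/Kl replicate 3, 0 of 29 rose or fell, against 0.0572% and 0.0457% of 8748 genes, with 2 higher and 2 lower at an unadjusted p under 0.05 in the limma fit, against 13.9% and 4.6%. On estimated reads 0 of 43 members with all libraries and 0 of 42 without that library passed, against 0.0% and 0.00532%, and 0.202% and 0.219% of all genes. The members' median log2 difference was -0.44, against -0.16 for all genes, with Kl/Kl replicate 3, and 0.00, against 0.06, without it.

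The values behind this were close in both female groups. Slc25a39 had 72.7, 76.6, 2.31 and 76.7 TPM in Kl/Kl females, against 78.5, 73.8, 79.1 and 85.5 TPM in control females. Apart from replicate 3 the groups overlapped, and the log2 difference without it was -0.07 (SE 0.07, limma adjusted p = 0.625).

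Slc25a5 had 260, 265, 68.7 and 252 TPM in Kl/Kl females, against 267, 260, 244 and 285 TPM in control females. Slc25a3 had 122, 115, 24.9 and 116 TPM in Kl/Kl females, against 116, 102, 116 and 118 TPM in control females. Slc25a4 had 92.3, 81.1, 220 and 85.6 TPM in Kl/Kl females, against 87.5, 70.7, 75.8 and 99.9 TPM in control females. Without Kl/Kl replicate 3 the groups overlapped for all 3 genes, and the log2 differences were -0.02 (SE 0.07), 0.06 (SE 0.08) and 0.06 (SE 0.12). Slc25a45 (4.18 ± 0.529 TPM in Kl/Kl females without replicate 3, SD, n = 3, and 3.20 ± 0.476 TPM in control females, SD, n = 4) had a difference of 0.31 that did not pass (limma adjusted p = 0.198). Slc25a35 was the only member with every Kl/Kl female below every control, with or without replicate 3 (4.56, 4.51, 1.29 and 4.40 TPM in Kl/Kl females, against 4.83, 5.01, 5.01 and 5.08 TPM in control females), against 3.01% and 3.49% of all genes. Its log2 difference without replicate 3 was -0.12 (limma adjusted p = 0.265), and its gene overlaps Rangrf by 1883 bp. Slc25a53 was the only member with every Kl/Kl female above every control once replicate 3 was left out, against 10.6% of all genes, and no member was with it, against 3.89%.

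**Figure D4:**
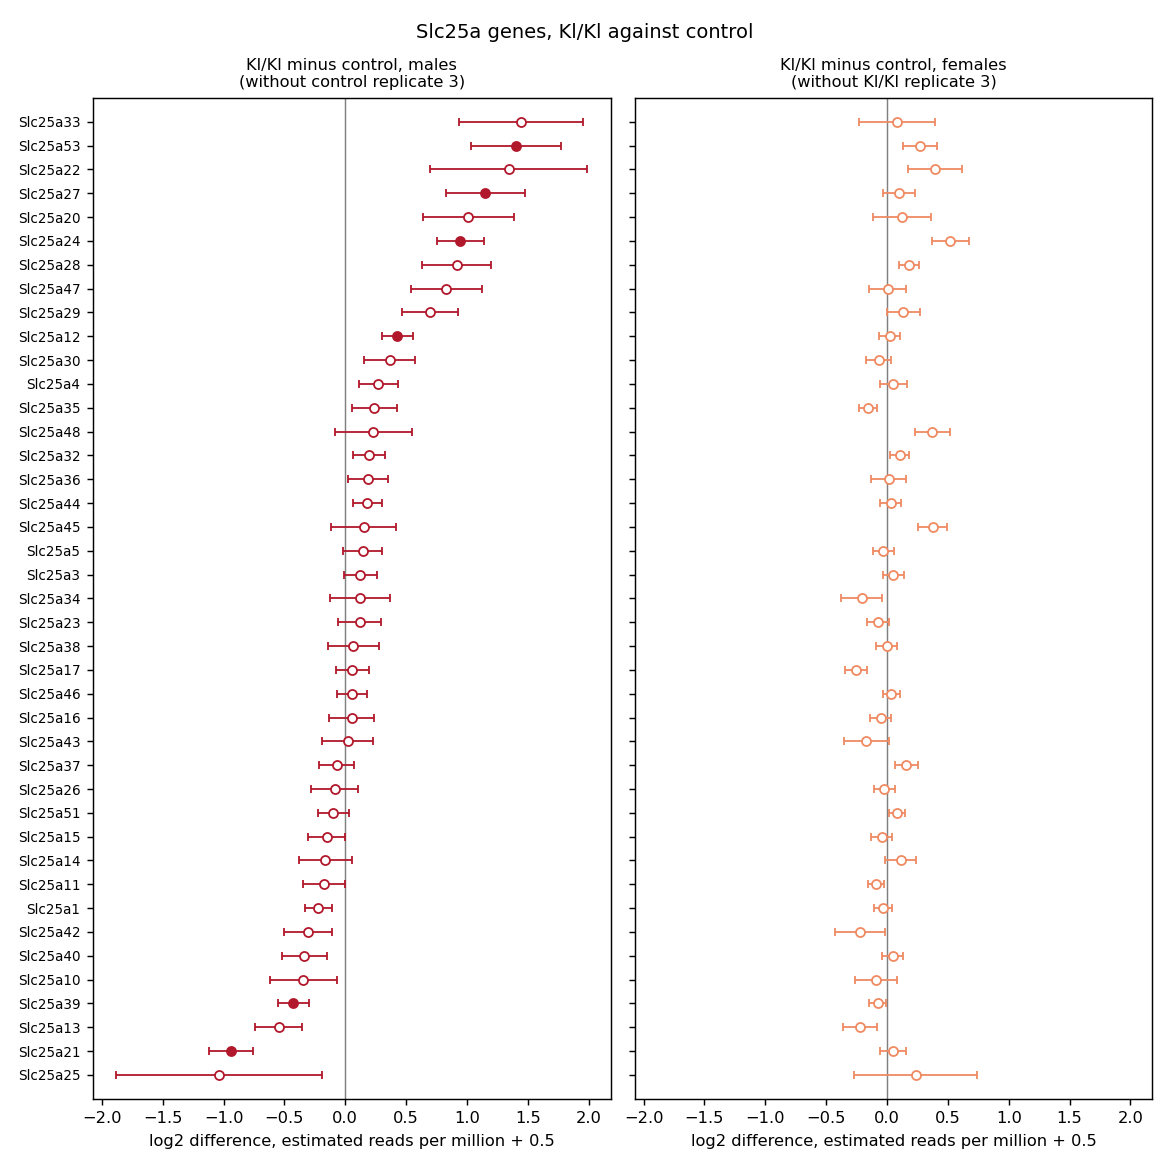
Log2 difference of Kl/Kl minus control (estimated reads per M + 0.5) with its standard error for 41 Slc25a genes, in males without control replicate 3 on the left and in females without Kl/Kl replicate 3 on the right; filled points passed limma's adjusted p of 0.05. Of the genes drawn, 4 rose and 2 fell in males, and in females 0 passed.

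Whether the sexes differed was tested directly, as the female difference minus the male difference. Because control genotype went with sex, the parts of sex and control genotype in this contrast cannot be told apart. With all 16 libraries 0 of 28 members differed in either direction, against 0.211% and 0.0% of 8535 genes, and 0 did at an unadjusted p under 0.05 in the limma fit, against 1.43% and 6.3%. Without both libraries that stood apart, 0 of 29 differed, against 3.43% and 0.46% of 8696 genes, with 3 higher and 0 lower at an unadjusted p under 0.05 in the limma fit, against 15.8% and 4.5%. For Slc25a39 the difference between the sexes was 0.44 (SE 0.14, limma adjusted p = 0.0947). On estimated reads 1 of 42 members differed, Slc25a21 (0.99, SE 0.21, limma adjusted p = 0.0200), against 1.78% of 18333 genes that were higher and 1.35% that were lower. Slc25a21 had 0.0491, 0.0382, 0.00157 and 0.0424 TPM in Kl/Kl females, against 0.0472, 0.0397, 0.0373 and 0.0416 TPM in control females, which overlapped. With all libraries 0 of 42 members differed on estimated reads, against 0.364% and 0.129% of all genes.

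The carriers of Kl/Kl female replicate 3 had a profile of their own. Of 42 members, 36 were below all 7 other female libraries and 2 above all of them, and the median ratio to the median of the others was 0.231, against 0.404 for all genes. The lowest ratios were those of Slc25a10, the dicarboxylate carrier (0.00489), Slc25a42, a coenzyme A carrier (0.0173), and Slc25a48 (0.0213). Slc25a4, the adenine nucleotide translocase of heart and skeletal muscle, stood at 220 TPM, against 70.7 to 99.9 TPM in the other female libraries, and Slc25a24 was 2.93 times their median. Slc25a20, the fatty acid carrier, was at 1.43 times. In that library 3 airway markers summed to 866 TPM and 4 adipocyte markers to 1182 TPM, against at most 0.118 TPM and 20.7 TPM in the other female libraries, and the part of these cell types in the carrier values was not tested.

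**Figure D5:**
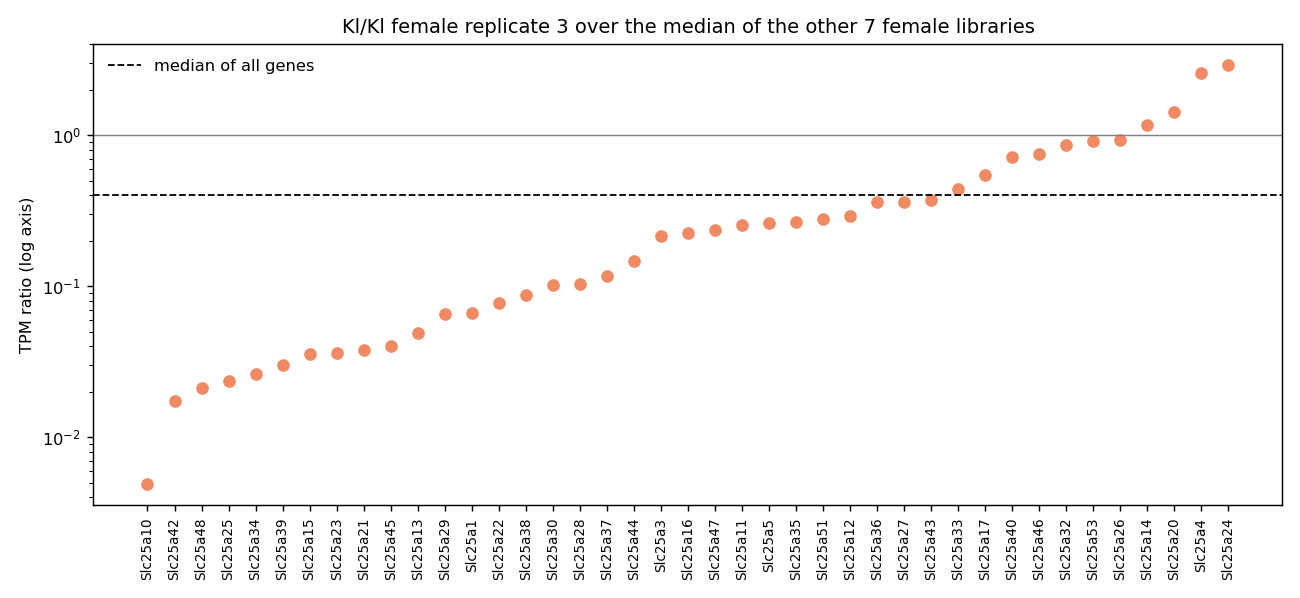
Ratio of the TPM in Kl/Kl female replicate 3 to the median of the other 7 female libraries for 41 Slc25a genes, ordered from low to high on a log axis; the dashed line is the median ratio of all genes (0.404). Slc25a10 is lowest at 0.00489, and Slc25a4 and Slc25a24 are highest at 2.57 and 2.93.

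Genes that work beside the carriers gave few calls on log2(TPM + 1). Of 56 such genes in 6 lists, 46 were tested with all males and 3 rose and 0 fell, against 3.74% and 2.18% of all genes, and 47 were tested without control replicate 3 and 2 rose and 3 fell, against 3.16% and 7.36%. Of 13 other inner membrane transporters, 2 of 7 tested rose in males, and 1 of 8 rose and 1 fell without control replicate 3. Sfxn2, a sideroflexin of the mitochondrial inner membrane, averaged 2.34 ± 0.277 TPM in Kl/Kl males (SD, n = 5) and 1.31 ± 0.160 TPM in control males (SD, n = 3), and rose by 0.53 (limma adjusted p = 0.0421), and by 0.49 (limma adjusted p = 0.0284) without control replicate 3. Sfxn3 rose by 0.59 with all males (limma adjusted p = 0.0431), and Letm1, a cation exchanger of the inner membrane, fell by 0.52 without control replicate 3 (limma adjusted p = 0.0266). Of 8 genes of the import path of carriers, 0 passed with all males, and Timm9, a chaperone of the intermembrane space that hands carriers to TIM22, fell by 0.34 without control replicate 3 (limma adjusted p = 0.0400).

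Of 16 matrix and cytosolic enzymes that use the carried metabolites, Oat, ornithine aminotransferase, averaged 19.8 ± 3.38 TPM in Kl/Kl males (SD, n = 5) and 8.55 ± 3.28 TPM in control males (SD, n = 3). It rose by 1.18 (limma adjusted p = 0.0271), and by 0.85 (limma adjusted p = 0.0235) without control replicate 3. Of the 16, all tested, 1 rose and 0 fell with all males, and 1 rose and 1 fell without that control. In females, with Kl/Kl replicate 3 included, Oat averaged 21.9 ± 6.01 TPM in Kl/Kl and 24.7 ± 2.32 TPM in control kidneys (SD, n = 4 each). Without that library, the log2 differences of all 16 enzymes in females lay between -0.12 and 0.21. The sexes' differences in Oat differed by -0.84 without both libraries that stood apart (limma adjusted p = 0.0309). Over the 6 lists that difference was higher for 3 genes and lower for 1 of 47 tested, against 3.43% and 0.46% of all genes. Slc25a15, the ornithine carrier of the same pathway as Oat, had 5.48 to 7.01 TPM in Kl/Kl males and 7.43, 7.43 and 2.36 TPM in control males. Among 8 outer membrane pores and receptors, 6 biogenesis factors and 5 carrier-fold genes without an Slc25a symbol, 0 rose or fell in either male comparison on this scale. In females 0 genes of any of these lists rose or fell on log2(TPM + 1), with or without Kl/Kl replicate 3.

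On estimated reads, 8 of the 56 genes beside the carriers rose and 3 fell with all males, against 14.2% and 5.26% of all genes, and 6 rose and 2 fell without control replicate 3, against 11.9% and 5.33%. These shares were near those of all genes. Ppargc1a, the coactivator of mitochondrial biogenesis, rose by 0.79 (limma adjusted p = 0.0103), and by 0.60 (limma adjusted p = 0.0168) without control replicate 3. Pck2, the mitochondrial PEP carboxykinase, rose by 0.84 (limma adjusted p = 0.0162) and 0.94 (limma adjusted p = 0.0221). Mtch1, a carrier-fold protein of the outer membrane, rose by 0.68 (limma adjusted p = 0.0163) and 0.55 (limma adjusted p = 0.0315). Cpt1a, which forms the acylcarnitines that Slc25a20 carries, rose by 0.89 with all males (limma adjusted p = 0.0447), with 12.3 ± 4.36 TPM in Kl/Kl males (SD, n = 5) and 6.29 ± 2.77 TPM in control males (SD, n = 3). Those that fell with all males were Timm9 (-0.63, limma adjusted p = 0.0364) and Timm8b (-0.59, limma adjusted p = 0.0414), both small chaperones of the intermembrane space, and Tspo, a protein of the outer membrane (-0.45, limma adjusted p = 0.0453). Without control replicate 3 none of these 3 passed (limma adjusted p of 0.0811, 0.0946 and 0.0833), and Letm1 fell by 0.58 (limma adjusted p = 0.0298).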

How the data were processed

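Kidney poly(A) RNA of 16 libraries was measured, with groups taken from the labels and 0 libraries unassigned. The authors deposited TPM values, 1 table a sex, with columns of equal total (285327 in males, 265288 in females). The submitters' processing notes name build mm39 and Partek; the aligner, the counting and the use of strand were not stated in the sources used here. From the values, the TPM were scaled by genomic span, with an offset of about 0.0001 read a gene, so levels of different genes are compared only per kb of exon (GENCODE exon lengths of GRCm38). Estimated depths were 21.6 to 31.8 M reads. As 70.1% to 72.7% of low genes fell on whole reads (tolerance 0.05), no count test was run.

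The tables were fitted whole with limma 3.58.1 in R 4.3.3 (trend) on log2(TPM + 1), with a mean of 1 TPM or more required and Benjamini-Hochberg adjustment over all genes fitted. Differences on this scale understate changes of low genes. Sexes were fitted within their tables, and the sex difference over 4 groups. Estimated reads per M of the library (mean of at least 10 reads, 0.5 added before log2) were an alternative added after the data were seen. The fits within each sex on log2(TPM + 1) were tested on simulated data; the sex difference and the estimated-read fits were not. Python 3.11.15, pandas 2.3.3, NumPy 2.4.6 and matplotlib 3.10.9 were used. Members and lists were chosen with earlier results of these data known. Values in every library were to be given for members past the threshold and for the 4 with the highest TPM in controls; further members were named after their values were seen. Counts cover all members and list genes, of which some are not reported here by name. The other settings tried were another pseudocount, other filters, other scalings, age, library name prefix, replicate number as a block, and each library left out.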

Additional observations from a re-analysis of the deposited data

Results flagged for a closer look

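Of 39 groups of 4 or 5 libraries in 13 members, 9 held a library far from the rest of its group. The cut used is one that chance passes in about 1 in 20 independent groups. These 13 members were partly picked after their values were seen, and the same libraries recur across them. The count of 9 therefore cannot be set against that rate. In Kl/Kl female replicate 3, Slc25a39 stood at 2.31 TPM (72.7 to 76.7 TPM in the other Kl/Kl females), Slc25a5 at 68.7 TPM (252 to 265 TPM), Slc25a3 at 24.9 TPM (115 to 122 TPM), Slc25a4 at 220 TPM (81.1 to 92.3 TPM) and Slc25a47 at 0.0327 TPM (0.126 to 0.139 TPM). In Kl/Kl male replicate 4, Slc25a22 stood at 23.7 TPM (2.88 to 7.53 TPM in the other Kl/Kl males) and Slc25a20 at 9.41 TPM (2.89 to 3.82 TPM). In Kl/Kl male replicate 1, Slc25a47 stood at 0.371 TPM (0.142 to 0.208 TPM). In control female replicate 2, Slc25a3 stood at 102 TPM (116 to 118 TPM in the other control females).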

How the results depend on the processing

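With all males, the number of members that fell was 1, and it was 0 with a pseudocount of 0.1, with no filter on low values, with a mean of at least 5 TPM or with age as a covariate, and 2 with median-of-ratios scaling or on estimated reads. The number that rose was 0, and it was 1 with the library name prefix as a covariate and 6 on estimated reads. Without control male replicate 3, the number that fell was 1, and it was 2 with a pseudocount of 0.1, with no filter, with median-of-ratios scaling or with equal sums over nuclear genes, and 3 on estimated reads. The number that rose was 1 with the prefix and 4 on estimated reads. Without both libraries that stood apart, the sexes' differences had 1 member higher with no filter or on estimated reads. Leaving out each library gave 0 to 1 fallen members with all males and 0 to 2 without control replicate 3, and 0 to 0 for the other counts. Median-of-ratios scaling moved the median log2 difference of all genes in males to -0.00, against 0.19, and equal nuclear sums to 0.08, and the cause of these shifts was not tested.

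Same-numbered libraries mostly did not deviate together (correlations of -0.131, 0.041 and -0.177 in males and 0.063, -0.08, -0.116 and 0.29 in females). Only the libraries of female number 4 were closest to each other (0.29, against at most 0.084 with other numbers), and as the other 6 pairs were not, the numbers were not taken to pair the samples. With the replicate number as a block, 0 members fell in either male comparison, and no other count changed.

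Single values under other settings were counted only for Slc25a39, Slc25a5, Slc25a3, Slc25a4, Slc25a28, Slc25a22, Slc25a33 and Slc25a20. Of these 381 values, 360 kept direction and side of the threshold, 0 lost a call, 10 gained one and 11 changed sign. The 11 were all uncalled. No member of this set was called in a main fit, so a lost call was not possible. Slc25a3 turned to -0.009 and -0.007 in males without control replicate 3, and to -0.025 and -0.003 in females without Kl/Kl replicate 3, under median-of-ratios scaling and equal nuclear sums. Slc25a4 in those females turned to -0.025 and -0.003. For the sexes' difference, Slc25a4 turned to -0.143 with age and -0.005 with the prefix (all libraries), and Slc25a3 to -0.017 with median-of-ratios scaling, -0.012 with the prefix and -0.071 on estimated reads (without both libraries). Leaving out a library turned Slc25a3 (-0.691 to 0.059), Slc25a28 (-0.570 to 0.159) and Slc25a22 (-0.530 to 0.328) in all females, Slc25a5 (-0.061 to 0.014), Slc25a4 (-0.016 to 0.148) and Slc25a20 (-0.017 to 0.281) in females without Kl/Kl replicate 3, and, for the sexes' difference, Slc25a39 (-1.309 to 0.209) and Slc25a4 (-0.324 to 0.217) with all libraries and Slc25a3 (-0.020 to 0.059) without both.

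Scaling by genomic span lowers the TPM of members on long genes. Some members under 1 TPM, such as Slc25a53 and Slc25a43, were also low per kb of exon (0.36 and 0.34 on average in the 6 controls without control male replicate 3). Slc25a2, Slc25a18 and Slc25a41 stayed under a mean of 10 estimated reads. Where a single control male is left, it is assumed to vary like the Kl/Kl males. Differences in cell makeup between groups were measured only as marker sums.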
